A study of Homo sapiens with 60 samples.

Results

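Palmul-tang and Sagunja-tang, a pair of traditional Korean herbal formulas, were compared at the same high dose in SW1783 cells, an established human astrocytoma line. The comparison takes 6 of the 60 RNA sequencing libraries of the series, chosen by their labels alone: 3 libraries of cells given an ethanol extract of Palmul-tang at 500 µg/mL and 3 of cells given an ethanol extract of Sagunja-tang at 500 µg/mL, each for 24 h. The same formulas at 100 µg/mL (medium dose) and 20 µg/mL (low dose), Samul-tang ethanol extract at 500 µg/mL and the vehicle, dimethyl sulfoxide (DMSO), stand beside them with 3 libraries each, all grown in L-15 medium with serum. Samul-tang and Sibjeondaebo-tang ethanol extracts at 20 µg/mL, with 3 libraries each, serve only to compare the label codes at the low dose. The 3 replicates of a group are not stated to be separate cultures, so every p measures the spread between these libraries, which may be technical. The question is which genes differ between a formula and another whose recipe contains it.

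In the traditional recipes Sagunja-tang is made of ginseng, Atractylodes rhizome, Poria and licorice, and Samul-tang of prepared Rehmannia, Angelica, Cnidium and peony roots. Palmul-tang is the union of these recipes, so that at equal mass of extract the herbs of Sagunja-tang make up a smaller part of it. The amounts of the herbs and of their compounds in the extracts are not given in the sources used here. Several genes below belong to the response to bone morphogenetic proteins (BMPs). BMPs are secreted ligands that bind receptor kinases, which phosphorylate SMAD1, SMAD5 and SMAD9. These enter the nucleus with SMAD4 and switch on the ID genes. ID proteins lack a DNA-binding region and hold basic helix-loop-helix transcription factors in inactive pairs, and in glial cells and gliomas they are known for keeping cells undifferentiated. Others belong to sterol synthesis, whose genes are switched on by the SREBP transcription factors when membrane cholesterol is low. HMGCS1 makes the precursor from which the mevalonate pathway starts.

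Total expected counts were 24827778 to 30020211 in the Palmul-tang high dose libraries and 26929143 to 37152410 in the Sagunja-tang ones, and mitochondrially encoded genes took 5.90% to 6.89% and 5.97% to 6.92% of them. Levels are given as CPM (counts scaled to a common library total) and differences as log2 ratios ± SE from edgeR, n = 3 libraries per group, called when the adjusted p over 17332 genes was below 0.05. Of 16 astrocyte and glial markers, VIM, CD44, GJA1, SOX9 and SLC1A3 were expressed in the 6 libraries while the defining markers GFAP, AQP4, S100B and ALDH1L1 stayed below 0.14 CPM, and none of the 11 tested was called. Of 15 tested markers of neurons, leukocytes, endothelium and epithelium only PECAM1 was called, at 1.04 to 1.64 CPM with Palmul-tang and 0.581 to 1.02 CPM with Sagunja-tang, and its call was lost in 8 of 15 alternatives. The summed levels of these lists were 139 to 148 against 147 to 150.2 CPM for neurons, 208 to 227 against 203 to 221 CPM for leukocytes, 37.9 to 40.6 against 38.4 to 40.9 CPM for endothelium and 6.09 to 6.97 against 6.10 to 6.88 CPM for epithelium. AIF1, TYROBP and CD3E, which define microglia and T cells, were at 0 in the 6 libraries, and the part of these cells in the results was not tested. The libraries carry the label codes 15 (Palmul-tang) and 14 (Sagunja-tang, Samul-tang), whose meaning is not given, so formula and code cannot be told apart at a single dose. The vehicle libraries carry another code, F1, and had 7.55% to 8.04% of counts in mitochondrially encoded genes. In every comparison with the vehicle below, treatment and code cannot be told apart either.

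A library apart from its group over the genes called at the high dose touches the low dose. Over the 424 genes lower with Palmul-tang at the high dose, the library labelled Palmul-tang low dose replicate 2 had a median log2 level of -0.057 relative to the mean of the Sagunja-tang low dose, among the -0.071 to -0.038 of the 3 medium dose libraries, where the other low dose libraries had -0.014 and -0.00059. Over genes at large it was not apart from its group. The SD of the log2 differences was 0.1138 between replicates 1 and 2 and 0.1124 between replicates 2 and 3. Between replicates 1 and 3 that SD was 0.1097. Replicate 2 is called the library apart below for the genes called at the high dose alone. It is kept under its label, and the main low dose and high minus low results are also given without it. Because it was picked out by genes called at the high dose, the values of these genes without it are not an independent check.

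Of 17332 genes tested, 813 (4.69%) differed between Palmul-tang and Sagunja-tang at the high dose. Of these, 389 (2.24%) were higher and 424 (2.45%) lower with Palmul-tang. These shares over all genes are the background for the high dose counts of the gene lists below. Most differences were small: the median size among called genes was 0.22 on the log2 scale, and 5 genes were higher and 21 lower by 2-fold or more. Protein-coding genes made up 764 of the 813. At the high dose, a rise or fall means a level above or below that of Sagunja-tang, not a change from the vehicle. Relative to the Sagunja-tang low dose mean, the median log2 level over the 389 genes was 0.083 to 0.092 in the vehicle libraries. It was 0.12 to 0.16 with Palmul-tang and -0.090 to -0.069 with Sagunja-tang at the high dose. Over the 424 genes these medians were 0.0057 to 0.024, -0.22 to -0.21 and 0.034 to 0.038. Among genes of at least 5 CPM that are named here, SAMD11, ID3, ID2, ATOH8 and ID1 had the largest falls, and ANGPTL4, IGFBP1, RRAD and LIF the largest rises. The count was 505 without Palmul-tang replicate 3, and 162 when the single-herb libraries also entered the fit and shared its estimate of spread.

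The ID genes were lower with Palmul-tang in every library. ID3 was at 54.4, 57.1 and 51.2 CPM in the 3 Palmul-tang libraries and at 169.5, 184 and 170.3 CPM in the 3 Sagunja-tang libraries, a 3.22-fold lower level (log2 -1.69 ± 0.078, adjusted p = 4.17e-18). The groups did not come near each other, and the vehicle, at 176 ± 5.40 CPM (SD), lay with Sagunja-tang. ID2 was at 6.61, 6.71 and 6.57 CPM with Palmul-tang and 19.3, 21.3 and 18.5 CPM with Sagunja-tang (log2 -1.57 ± 0.092, adjusted p = 3.5e-15). ID1 was at 125, 116 and 109.9 CPM with Palmul-tang and 243, 235 and 249.9 CPM with Sagunja-tang (log2 -1.05 ± 0.068, adjusted p = 3.53e-14). In both genes the Sagunja-tang libraries were again near the vehicle (21.6 ± 0.751 and 233 ± 1.73 CPM), and the Palmul-tang libraries lay below those of Sagunja-tang, Samul-tang and the vehicle. ID4, which stood at only 0.842 to 1.17 CPM with Palmul-tang, was at 2.79 to 3.09 CPM with Sagunja-tang (log2 -1.51 ± 0.16). These 4 calls held under all 16 alternative settings.

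**Figure D1:**
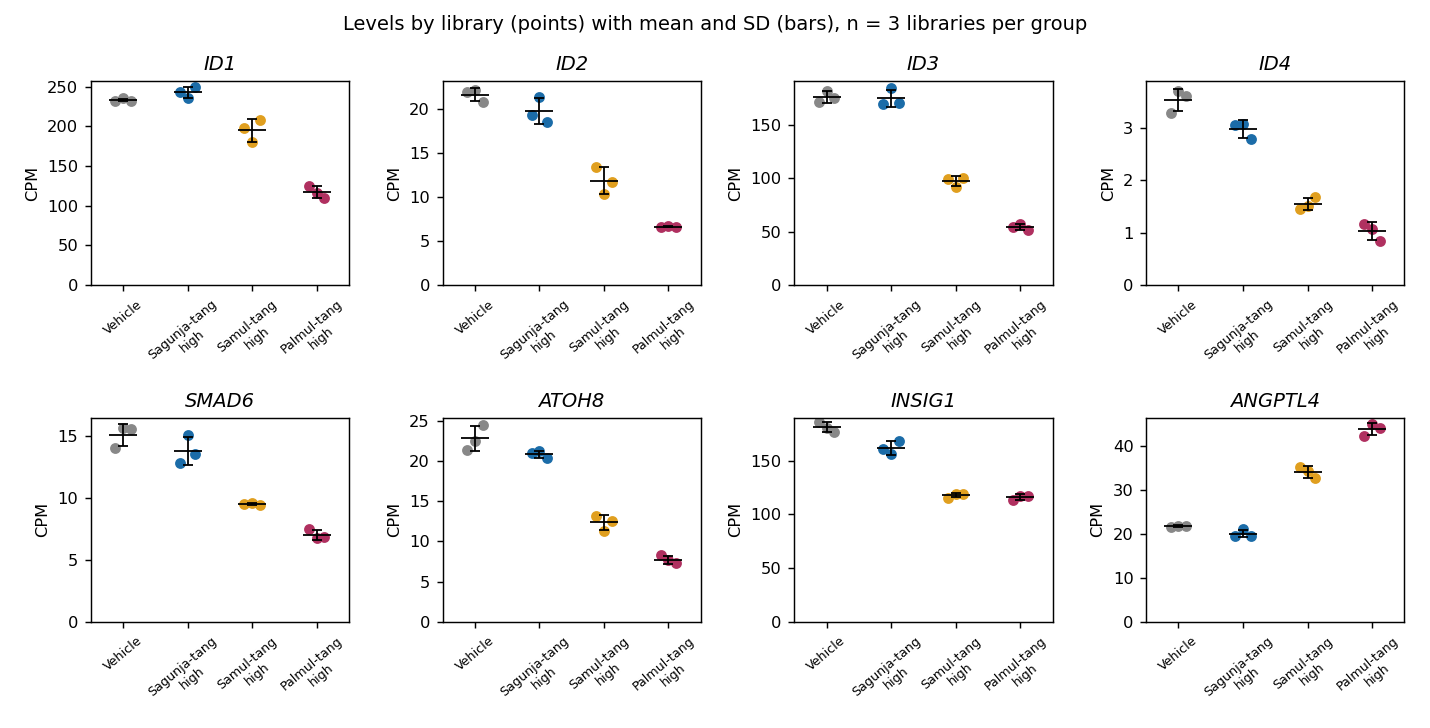
CPM of 8 genes in the vehicle and in the high dose of Sagunja-tang, Samul-tang and Palmul-tang; points are libraries, bars the mean and SD of 3. Palmul-tang is the lowest group for the ID genes, SMAD6 and ATOH8, with ID3 at 51.2 to 57.1 CPM against 169.5 to 184 CPM for Sagunja-tang, and the highest for ANGPTL4.

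The 3 ID genes of the highest level and HMGCS1 lie at chr20:31605283-31606515 (ID1, ENSG00000125968), chr2:8678845-8684453 (ID2, ENSG00000115738), chr1:23557918-23559794 (ID3, ENSG00000117318) and chr5:43289395-43313512 (HMGCS1, ENSG00000112972) on GRCh38. Their upstream sequences are shown because the ID genes moved together and HMGCS1 with the sterol genes. Each is the 250 bases before the RefSeq start on GRCh38.p14, 5′ to 3′ on the gene's strand, with matches on either strand to 5 motifs in capitals: GGCGCC (a GC-rich SMAD motif), GTCTAGAC (a palindromic SMAD motif), TCACNCCAC (sterol regulatory element), CCAAT (NF-Y box) and CACGTG (E-box). The intervals are chr20:31605039-31605288 (plus strand), chr2:8681806-8682055 (plus), chr1:23559502-23559751 (minus) and chr5:43313413-43313662 (minus).
ID1: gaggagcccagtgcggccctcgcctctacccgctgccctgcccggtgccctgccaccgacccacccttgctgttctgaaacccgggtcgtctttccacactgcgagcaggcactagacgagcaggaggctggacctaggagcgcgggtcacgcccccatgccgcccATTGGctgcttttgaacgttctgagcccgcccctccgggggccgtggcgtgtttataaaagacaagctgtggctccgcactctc
ID2: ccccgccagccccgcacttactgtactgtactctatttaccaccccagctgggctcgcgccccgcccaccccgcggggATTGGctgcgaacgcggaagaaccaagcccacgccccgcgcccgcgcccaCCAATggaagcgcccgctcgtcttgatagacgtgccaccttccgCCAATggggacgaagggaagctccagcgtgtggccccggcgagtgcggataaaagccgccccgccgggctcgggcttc
ID3: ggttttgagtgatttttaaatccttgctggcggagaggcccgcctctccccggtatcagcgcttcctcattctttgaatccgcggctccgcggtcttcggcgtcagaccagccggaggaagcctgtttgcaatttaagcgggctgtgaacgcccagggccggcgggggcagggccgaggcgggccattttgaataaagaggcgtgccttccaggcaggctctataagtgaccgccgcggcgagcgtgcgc
HMGCS1: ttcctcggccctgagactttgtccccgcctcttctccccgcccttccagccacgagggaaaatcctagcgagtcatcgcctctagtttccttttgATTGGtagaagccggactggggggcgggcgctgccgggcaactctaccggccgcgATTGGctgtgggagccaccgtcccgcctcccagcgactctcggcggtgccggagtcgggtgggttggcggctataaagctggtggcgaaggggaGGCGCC
The capitals, which read as the reverse complement where the match is on the other strand, are NF-Y boxes whose first base lies at -84 in ID1, at -172, -122 and -78 in ID2 and at -155 and -100 in HMGCS1, and a GC-rich SMAD motif at -6 in HMGCS1. ID3 held none of the 5. Over 35116 RefSeq promoters of this length, 32.0% held the NF-Y box, 16.4% the GC-rich SMAD motif, 0.182% the palindromic SMAD motif, 0.883% the sterol regulatory element and 6.34% the E-box. Of 16 ID and BMP target promoters matched, 9 held the NF-Y box, 3 the GC-rich and 1 the palindromic SMAD motif, 2 the E-box and 0 the sterol element. Of 19 cholesterol gene promoters, 15 held the NF-Y box, 7 the GC-rich and 0 the palindromic SMAD motif, 3 the E-box and 1 the sterol element. A match is a run of letters only, no match says only that these letters are not in this window, and no matches to different motifs overlap in these 4 sequences.

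Some other targets of BMP signalling fell with the ID genes. Of the 20 members of the ID and BMP/SMAD target list, 9 fell, 2 rose and 9 were not called. The list holds ID1, ID2, ID3 and ID4, which are among the 9 falls. Of all genes, 2.45% were lower and 2.24% higher. The median log2 difference of the list, with the ID genes in it, was -0.41 beside 0.0042 over all genes. ATOH8, a helix-loop-helix factor, was at 8.26, 7.65 and 7.25 CPM with Palmul-tang and 21.0, 21.2 and 20.3 CPM with Sagunja-tang (log2 -1.43 ± 0.090, adjusted p = 1.71e-14). SMAD6, an inhibitory SMAD that BMPs induce as feedback, was at 7.49, 6.74 and 6.85 CPM against 12.8, 15.1 and 13.6 CPM (log2 -0.97 ± 0.085, adjusted p = 1.01e-10). For both, the highest Palmul-tang library was below the lowest Sagunja-tang library by a wide margin. The homeobox gene DLX2 was also lower (log2 -0.75 ± 0.084). Other called members of the list, named after their values were seen, were SMAD9 (log2 -0.93), one of the SMADs that carry the signal, which was lower, and the secreted BMP antagonist GREM1 (log2 0.35) and the BMP-binding protein BMPER (log2 0.20, lost in 3 of 16 alternatives), both higher. Without the library apart, the high minus low differences of SMAD9 (-0.71, adjusted p = 0.114), GREM1 (0.26, 0.208) and BMPER (0.23, 0.0872) were not called. SMAD7, an inhibitory SMAD that TGF-beta also induces, was at log2 -0.14 (95% interval -0.29 to 0.0036) and the pseudoreceptor BAMBI at -0.12 (-0.27 to 0.022), neither called.

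Upstream genes of the pathway were called in both directions. Of 22 tested BMP ligands, receptors and SMADs, 2 rose and 1 fell, beside 2.24% and 2.45% of all genes, with a median of 0.028. The ligand GDF6 was at 22.2 ± 0.783 CPM with Palmul-tang and 17.4 ± 0.409 CPM with Sagunja-tang (SD, n = 3, log2 0.35 ± 0.066). The co-receptor RGMB was at 61.2 ± 0.237 against 50.5 ± 2.65 CPM (log2 0.28 ± 0.051). The type II receptor BMPR2 was at log2 -0.12 ± 0.035 (adjusted p = 0.0318), a call lost in 8 of 16 alternatives. SMAD1, SMAD5 and SMAD4 had log2 differences of -0.12, -0.097 and -0.042 and were not called. In the TGF-beta list, 3 of 20 rose and 5 fell, with a median of 0.010. INHBA, an activin subunit, rose (log2 0.25) and SKIL, a repressor of SMAD complexes, fell (-0.28), as did LTBP3 (-0.25), a TGF-beta binding protein, and LRRC15 (-0.40), a TGF-beta-responsive membrane protein.

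Few genes were called at the low dose. At 20 µg/mL 1 gene of 17332 (0.00577%) was called, FTL, and 1360 had an unadjusted p below 0.05, while DESeq2 called 15. The low dose differences of the ID genes were -0.16 for ID1 (95% interval -0.30 to -0.030), -0.0068 for ID2 (-0.16 to 0.15) and -0.029 for ID3 (-0.18 to 0.12), and without the Palmul-tang library that stands apart they were -0.061, 0.10 and 0.11. That library had 129.7 CPM of ID3, where the other Palmul-tang low dose libraries had 187 and 169 CPM and the Sagunja-tang ones 161 to 172 CPM. The same codes 15 and 14 can be compared at the low dose in libraries of other formulas, Sibjeondaebo-tang and Samul-tang. There 8 genes (0.0462%) were called. So few calls over all genes make the absence of ID genes among them uninformative. The 20 members of the ID and BMP target list ran from log2 -0.42 to 0.20 there, with a median of 0.0042.

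Whether the difference between the formulas changed with dose was tested as the Palmul-tang minus Sagunja-tang difference at the high dose less that at the low dose, in which a constant difference between codes cancels. By this test 255 genes (1.47%) were called, 123 (0.71%) higher and 132 (0.762%) lower, and 270 without the library apart. They included 101 of the 389 genes higher and 122 of the 424 genes lower at the high dose. For ID3 the difference of differences was log2 -1.66 ± 0.11 (adjusted p = 1.8e-13), for ID2 -1.56 ± 0.12 and for ID1 -0.89 ± 0.095, and without the library apart -1.80, -1.67 and -0.99. Of the ID and BMP target list 8 members, the ID genes among them, fell by this test and none rose, with and without that library.

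At the medium dose of 100 µg/mL, in other libraries with the same label codes as the high dose, 100 genes (0.577%) were called, 50 in each direction (0.288% each). ID3 was at 125, 133 and 138 CPM with Palmul-tang and 174, 180.5 and 169 CPM with Sagunja-tang (log2 -0.40 ± 0.073, adjusted p = 0.00585), ID2 at log2 -0.41 and ID1 at -0.35, all 3 called. INSIG1, a target of the SREBPs, was at 122, 124 and 135 CPM against 121, 122 and 127 CPM (log2 0.044, 95% interval -0.038 to 0.13, adjusted p = 0.731). Of the genes lower at the high dose, 358 of 424 (84.4%) had a negative medium dose difference, beside 49.95% of all genes, and 265 (62.5%) a negative low dose difference, beside 49.0%. Without the library apart, which was picked out by these same genes, the low dose share was 55.7% (236 of 424), beside 48.9% of all genes. Of those higher at the high dose, 336 of 389 (86.4%) were positive at the medium dose. The medium dose count fell to 11 without Palmul-tang replicate 1 and 13 without Sagunja-tang replicate 2, and with the single-herb libraries in the fit no gene was called by edgeR (648 at an unadjusted p below 0.05), where DESeq2 on the 39 libraries called 174.

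**Figure D2:**
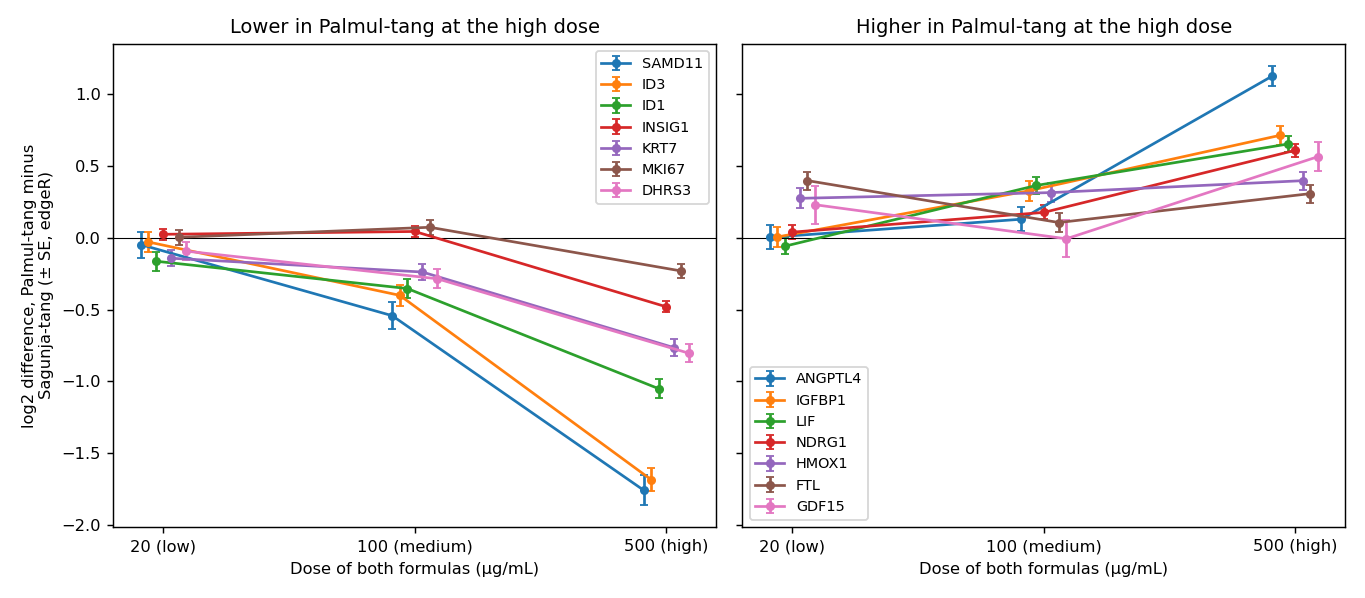
Each panel gives the log2 difference between Palmul-tang and Sagunja-tang at 20, 100 and 500 µg/mL for 7 genes lower (left) and 7 higher (right) at the high dose; points are edgeR estimates and bars SE, n = 3 libraries per group. SAMD11, ID3 and ID1 open a gap at 100 µg/mL that widens at 500 µg/mL, and FTL lies above 0 at each dose.

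**Figure D3:**
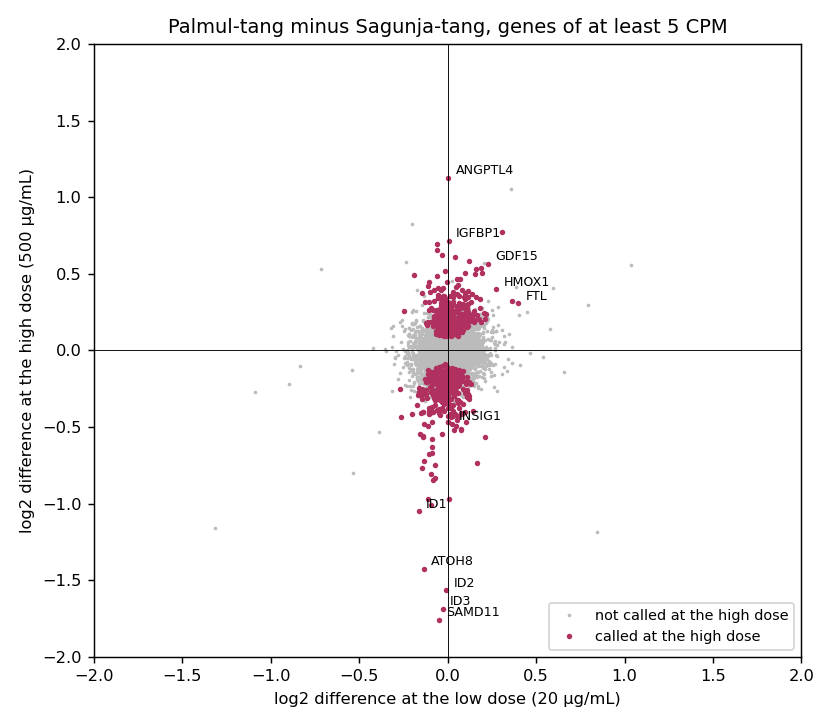
log2 difference at the high dose (vertical) against the low dose (horizontal) for 11249 genes of at least 5 CPM, the 746 called at the high dose in colour. The ID genes, SAMD11 and ATOH8 lie far below 0 on the vertical axis near 0 on the horizontal one, and FTL, the gene also called at the low dose, lies right of 0.

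Genes of cholesterol synthesis and uptake were lower with Palmul-tang. Of 26 tested, 16 fell and none rose, with a median of -0.27. INSIG1, which holds the SREBP complex in the endoplasmic reticulum and is itself a target, was at 113, 118 and 117 CPM with Palmul-tang and 161, 156 and 169 CPM with Sagunja-tang (log2 -0.48 ± 0.040, adjusted p = 2.91e-11), and at 181 ± 4.89 CPM in the vehicle. The groups did not overlap, and both formulas had a mean below that of the vehicle.

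Among the enzymes, HMGCS1 was at 46.2, 49.5 and 53.3 CPM with Palmul-tang and 57.7, 57.03 and 57.3 CPM with Sagunja-tang (log2 -0.21 ± 0.048, adjusted p = 0.00497). The groups did not overlap, but the Palmul-tang libraries spread over a range that the tight Sagunja-tang libraries lack, and the call was lost without Palmul-tang replicate 1 (the lowest) and with the single-herb libraries in the fit (adjusted p up to 0.374). Its high minus low difference, -0.14 ± 0.067 (adjusted p = 0.425), was not called, nor was the -0.17 without the library apart (adjusted p = 0.325). MSMO1, a sterol demethylase, was at 41.7, 41.9 and 41.7 CPM against 55.4, 55.1 and 54.4 CPM (log2 -0.40 ± 0.038, adjusted p = 1.33e-09). SQLE, the epoxidase that precedes the sterol ring, was at -0.26. SREBF2, the gene of the main sterol-responsive SREBP, named after its value was seen, was at -0.31. In the high minus low test 11 of the 26 fell. With the single-herb libraries in the fit 8 of the 26 were called at the high dose.

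Fatty acid synthesis genes went the same way, with 6 of 14 lower and none higher (median -0.14). SCD, which makes monounsaturated fatty acids, was at 227, 221 and 231 CPM with Palmul-tang and 326, 329 and 336 CPM with Sagunja-tang (log2 -0.54 ± 0.038, adjusted p = 2.21e-13), without overlap. The desaturases FADS2 (log2 -0.41) and FADS1 (-0.25) and the synthase FASN (-0.30) were lower as well. SREBF1, named after its value was seen, was at -0.36. Of 11 LXR target and cholesterol efflux genes 2 were higher and 1 lower. ABCA1, the transporter that loads cholesterol on apolipoprotein A-I, was at 71.8, 71.1 and 70.8 CPM with Palmul-tang against 52.8, 48.3 and 53.3 CPM (log2 0.47 ± 0.052, adjusted p = 4.76e-08), and NPC1, which exports cholesterol from lysosomes, at log2 -0.23.

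**Figure D4:**
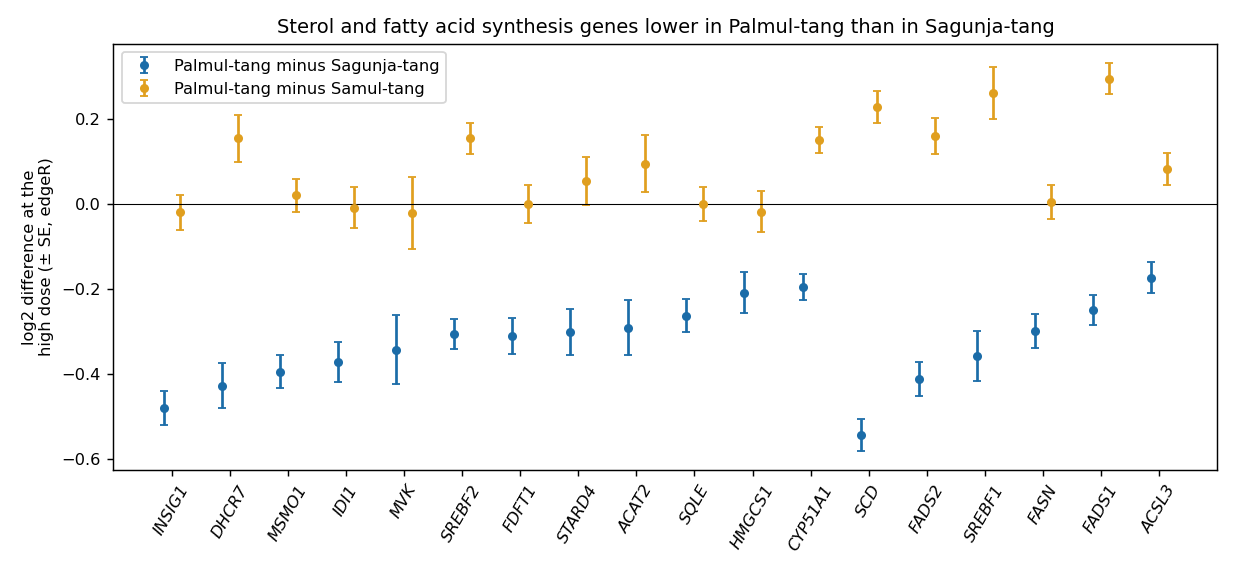
log2 difference at the high dose of Palmul-tang from Sagunja-tang and from Samul-tang for 18 sterol and fatty acid synthesis genes lower than with Sagunja-tang; points are edgeR estimates and bars SE, n = 3 libraries per group. The differences from Sagunja-tang run from -0.54 (SCD) to -0.17 (ACSL3), and those from Samul-tang lie nearer to 0 for most genes.

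ANGPTL4, a secreted inhibitor of lipoprotein lipase that PPARs and hypoxia induce, had the largest rise among genes of at least 5 CPM. It was at 42.3, 45.0 and 44.2 CPM with Palmul-tang and 19.6, 21.1 and 19.7 CPM with Sagunja-tang, 2.19-fold higher (log2 1.13 ± 0.070, adjusted p = 1.06e-14), and at 21.8 ± 0.195 CPM in the vehicle. The Palmul-tang libraries stood above those of Sagunja-tang, Samul-tang and the vehicle, and at the low dose both formulas were at 12.5 to 16.1 and 12.3 to 14.7 CPM. Of 12 tested PPAR target and lipid droplet genes 3 rose and none fell. The other called members were PLIN2, a lipid droplet coat protein (log2 0.43 ± 0.050), and CPT1A, which brings fatty acids into mitochondria (0.37 ± 0.062).

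Genes of mitosis were slightly lower with Palmul-tang. Of 26 tested G2/M genes 14 fell and none rose, with a median of -0.15, and all 26 differences were negative. The largest was HMMR, a spindle and hyaluronan-binding protein, at 65.6, 62.8 and 62.6 CPM against 76.9, 78.6 and 75.0 CPM (log2 -0.27 ± 0.034). CCNA2, cyclin A2, was at log2 -0.26, KIF20A, a kinesin of cytokinesis, at -0.23, TOP2A, topoisomerase II alpha, at -0.20 and MKI67, the proliferation marker Ki-67, at -0.23. Of 22 S phase genes 4 fell, among them RRM2, a ribonucleotide reductase subunit (-0.22). The calls of RRM1 and CDC45, also among them, were lost in 10 and 5 of 16 alternatives. In the high minus low test 4 G2/M genes and 1 S phase gene fell, and with the single-herb libraries in the fit 1 G2/M gene was called at the high dose. In bulk RNA fewer cells in a phase and less RNA per cell cannot be told apart.

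Keratins and retinoid genes held further falls. KRT7, an epithelial keratin, was at 297, 288 and 289.7 CPM with Palmul-tang and 479, 495 and 513 CPM with Sagunja-tang (log2 -0.77 ± 0.059, adjusted p = 4.34e-12), KRT80 at log2 -0.68 and KRT81 at -0.63. These 3 of 7 tested keratins fell and none rose, and the vehicle had 592 ± 19.2 CPM of KRT7. KRT81 shares sequence with KRT86, so its counts are less certain. DHRS3, which reduces retinal to retinol, was at 24.2, 25.9 and 28.0 CPM against 41.5, 46.2 and 48.2 CPM (log2 -0.80 ± 0.062, adjusted p = 5.5e-12). Here the vehicle, at 30.9 ± 1.26 CPM, was nearer to Palmul-tang. STRA6, the retinol-binding protein receptor (log2 -0.32), and CYP26B1, which breaks down retinoic acid (-0.23), made 3 falls in 11 retinoid genes, with no rise. The call of CYP26B1 was lost in 6 of 16 alternatives.

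The largest fall by fold among genes of at least 5 CPM was that of SAMD11, a SAM domain protein. It was at 25.6, 24.5 and 23.5 CPM with Palmul-tang and 82.4, 85.5 and 81.3 CPM with Sagunja-tang, 3.38-fold lower (log2 -1.76 ± 0.10, adjusted p = 3.12e-15), and its high minus low difference was -1.71 ± 0.14 (-1.89 without the library apart). As for the ID genes, the Sagunja-tang libraries were at the level of the vehicle (83.1 ± 3.15 CPM). Its low dose value of 58.0 CPM in the library apart lay near its medium dose values of 53.05 to 66.1 CPM rather than the 88.7 and 86.9 CPM of the other Palmul-tang low dose libraries. RHOBTB3, a BTB domain protein, was at 312, 309 and 302 CPM against 552, 560.0 and 549.6 CPM (log2 -0.85 ± 0.043, adjusted p = 6.02e-17), and RASL11A, a Ras-like protein, at log2 -0.97 ± 0.091.

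The genes that rose included secreted signals. IGFBP1, which binds insulin-like growth factors, was at 42.5, 44.0 and 46.1 CPM with Palmul-tang and 27.7, 27.0 and 26.1 CPM with Sagunja-tang (log2 0.71 ± 0.064, adjusted p = 2.67e-10). LIF, a cytokine of the interleukin-6 family, was at 51.7, 57.4 and 55.6 CPM against 32.2, 35.4 and 37.0 CPM (log2 0.65 ± 0.057, adjusted p = 1.01e-10). The groups did not overlap for either gene, but the vehicle sat with Sagunja-tang for IGFBP1 (23.3 ± 1.599 CPM) and above both for LIF (62.8 ± 5.41 CPM). Of the IGF list 2 of 12 rose, with IGFBP5 at log2 0.19, and IGFBP3 fell (-0.27). Of 21 inflammatory genes 3 rose and 1 fell: the chemokine CXCL8 (log2 0.49) and the mitochondrial superoxide dismutase SOD2 (0.25) were higher beside LIF, and TNFAIP2 lower (-0.22). The calls of IGFBP5 and TNFAIP2 were each lost in 5 of 16 alternatives. CXCL8 stood at only 6.79 to 8.18 against 4.70 to 6.32 CPM, and its call was lost without Palmul-tang replicate 2 (adjusted p = 0.0819) or Sagunja-tang replicate 3 (0.0909). PTX3, a secreted pentraxin, rose by 0.52 on the log2 scale (adjusted p = 9.43e-08).

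Some genes of hyaluronan synthesis and of matrix proteolysis were higher with Palmul-tang. HAS2, a hyaluronan synthase, was at 59.4, 63.5 and 65.4 CPM with Palmul-tang and 47.6, 46.7 and 44.2 CPM with Sagunja-tang (log2 0.45 ± 0.037, adjusted p = 2.91e-11), HAS3 at log2 0.31 and CEMIP, which depolymerises hyaluronan, at 0.33. For HAS2 and CEMIP both formulas lay below the vehicle (96.0 ± 0.709 and 52.1 ± 1.302 CPM). In the list of 11, 4 rose, the fourth being UGDH, which makes a hyaluronan precursor, and HMMR fell. Of 16 proteases and inhibitors 5 rose and 1 fell: MMP14, a membrane-bound collagenase, was at log2 0.29 ± 0.033, MMP1, interstitial collagenase, at 0.22, ADAMTS1 at 0.34 and PLAUR, the urokinase receptor, at 0.28. ADAMTS6, a related metalloprotease outside the list, was at 32.2, 31.7 and 33.1 CPM against 21.0, 20.3 and 21.6 CPM (log2 0.62 ± 0.054, adjusted p = 9.22e-11). Of 28 collagen and matrix genes 1 was higher (THBS1, thrombospondin, log2 0.18) and 3 lower (COL11A1 -0.38, COL1A1 -0.12 and LAMC1 -0.086), of which COL1A1 lost its call in 6 and LAMC1 in 9 of 16 alternatives.

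Some genes known to respond to hypoxia, growth factors and cell tension were higher with Palmul-tang. NDRG1, a stress-induced gene, was at 56.6, 58.7 and 59.6 CPM with Palmul-tang and 38.2, 39.1 and 37.5 CPM with Sagunja-tang (log2 0.61 ± 0.047, adjusted p = 5.5e-12), and the vehicle, at 54.7 ± 1.21 CPM, was near Palmul-tang. With it rose ENO2 (log2 0.31), a glycolytic enolase, VEGFA (0.24), the vascular growth factor, and SLC2A1 (0.22), a glucose transporter, among 7 of 28 hypoxia and glycolysis genes that rose and 1 that fell. Of 23 immediate early and MAPK feedback genes 6 rose and none fell. They included EGR1 (39.6, 42.8 and 44.1 CPM against 30.1, 32.1 and 33.1 CPM, log2 0.41 ± 0.057), an immediate early transcription factor, the phosphatases DUSP5 (0.38) and DUSP4 (0.21) and MYC (0.26). Of 16 YAP/TAZ targets 3 rose, F3, tissue factor (log2 0.49 ± 0.040), CCN1 (0.40 ± 0.047) and ASAP1 (0.13), and ANKRD1 fell (-0.46). The call of ASAP1 was lost in 7 of 16 alternatives. CCN2, a classical target of the same factors, was at 78.5, 95.4 and 100.1 CPM against 90.0, 89.9 and 92.9 CPM, which overlap (95% interval of the log2 difference -0.12 to 0.13). RRAD, a small GTPase (log2 0.69 ± 0.082), FBXO32, a ubiquitin ligase subunit of muscle wasting (0.50 ± 0.049), PSD4 (0.53 ± 0.068) and SERPINB2, a plasminogen activator inhibitor (0.45 ± 0.060), were also higher.

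Ferritin and other antioxidant genes were higher with Palmul-tang at the high dose. FTL, the ferritin light chain, was at 2418, 2321 and 2451 CPM with Palmul-tang and 1919, 2022 and 1868 CPM with Sagunja-tang at the high dose (log2 0.31 ± 0.063, adjusted p = 0.00143) and at 1299, 1326 and 1172 CPM against 1038, 964 and 879 CPM at the low dose (log2 0.40 ± 0.063, adjusted p = 0.0045). The low dose call was lost without the library apart (adjusted p = 0.0666), and no gene was called without Palmul-tang replicate 1 or Sagunja-tang replicate 3. At the medium dose FTL was at log2 0.11 (95% interval -0.022 to 0.23). Its high minus low difference was -0.091 ± 0.089 (95% interval -0.27 to 0.089), and -0.058 without that library, so no change with dose was detectable. HMOX1, which degrades heme, was at 285, 263 and 283 CPM against 206, 208 and 216 CPM at the high dose (log2 0.40 ± 0.063, adjusted p = 3.75e-05), both far above the 86.2 ± 1.75 CPM of the vehicle, and its high minus low difference was 0.12 ± 0.094 (adjusted p = 0.696). Without the library apart that difference was 0.27 ± 0.074 (adjusted p = 0.0513). FTH1, the ferritin heavy chain (log2 0.37), AKR1C1 (0.37), an aldo-keto reductase whose close copies make its counts less certain, and UGDH (0.21) made, with FTL and HMOX1, 5 rises among 32 NRF2 targets, with no fall. NQO1 was not called (log2 0.12, 95% interval 0.039 to 0.20).

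GDF15, a stress-induced cytokine, was at 16.6, 16.2 and 18.4 CPM with Palmul-tang and 10.8, 10.8 and 12.7 CPM with Sagunja-tang (log2 0.56 ± 0.10, adjusted p = 0.000255), with 3.81 ± 0.261 CPM in the vehicle. Its high minus low difference of 0.33 ± 0.17 was not called (adjusted p = 0.469), nor was the 0.49 without the library apart (adjusted p = 0.193). Of 27 ATF4 target genes 3 rose and none fell, the others being STC2 (log2 0.31), a secreted glycoprotein, and VLDLR (0.16), whose call was lost in 11 of 16 alternatives, DESeq2 among them. Of 9 aryl hydrocarbon receptor targets SERPINB2 was called, while CYP1A1 and CYP1B1 were at log2 -0.42 (95% interval -0.81 to -0.037) and -0.090 (-0.16 to -0.019), neither called. CDKN1A, the p53 target p21, was at -0.20 (adjusted p = 0.0441), lost in 6 of 16 alternatives. No member was called among 24 interferon-stimulated genes, 30 nuclear respiratory chain genes, 13 mitochondrially encoded genes, 7 Wnt targets or 7 Notch targets. In the heat shock list 1 of 16 rose, in the endoplasmic reticulum stress list 2 of 17, and among ribosomal proteins 1 of 32. Over all genes 2.24% rose. The calls of DNAJB9 and MANF in the stress list and of RPS6 among ribosomal proteins were lost in 6, 7 and 8 of 16 alternatives. With the single-herb libraries in the fit fewer members of some lists above were called. In these lists the called members were 2 fatty acid synthesis genes, 3 NRF2 targets, 4 hypoxia and glycolysis genes, 1 hyaluronan gene and 3 proteases. Other lists kept their calls, such as ANGPTL4, PLIN2 and CPT1A among PPAR targets and KRT7, KRT80 and KRT81 among keratins. The ID and BMP target list had 9 falls, the ID genes among them, and 1 rise. Over all 17676 genes of that fit, 69 were higher and 93 lower.

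**Figure D5:**
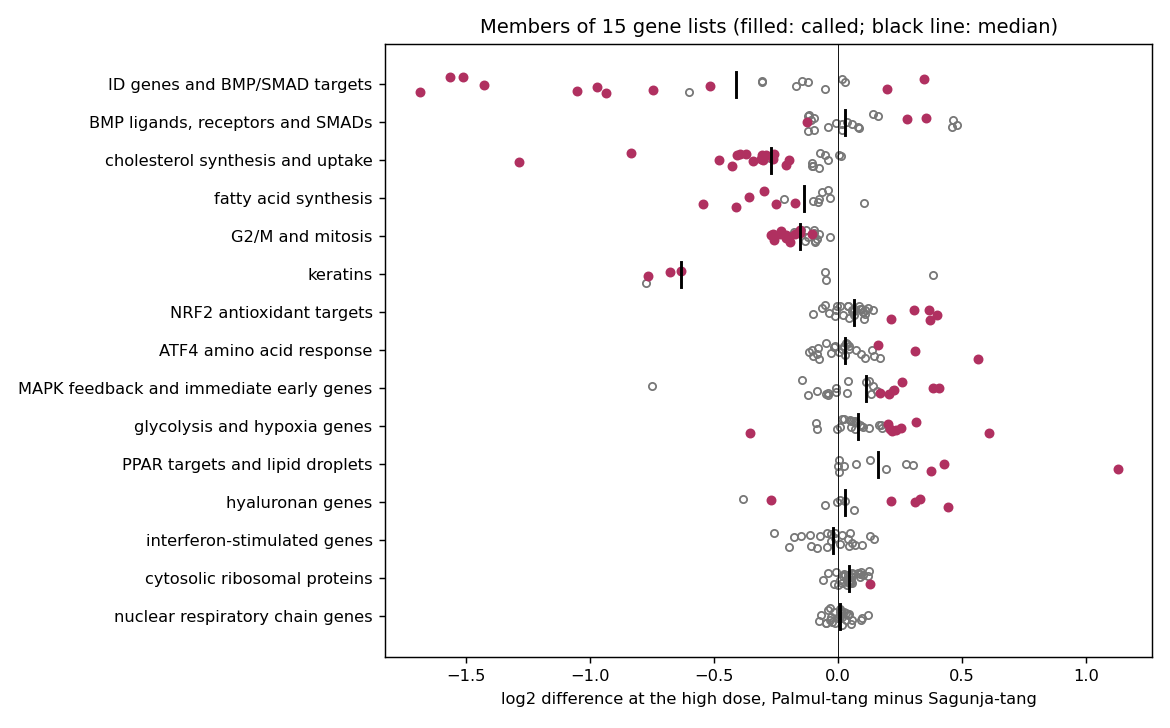
log2 difference at the high dose for the tested members of 15 gene lists, filled where called, with the median of each list as a black line. The medians of the ID and BMP target list (-0.41) and of the cholesterol list (-0.27) lie left of 0, and the interferon, ribosomal protein and respiratory chain lists are narrow around 0.

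Samul-tang, whose herbs Palmul-tang also contains, is the other parent formula. Samul-tang differed from Sagunja-tang at the high dose in 2981 genes (17.2%; 8.5% higher and 8.69% lower with Samul-tang) and from Palmul-tang in 1547 (8.93%). These comparisons share libraries with the first and are given side by side, not as separate evidence. The ID genes were lower with Palmul-tang than with either parent: ID3 was at 99.7, 91.7 and 100.3 CPM with Samul-tang, and the Palmul-tang minus Samul-tang difference was log2 -0.84 ± 0.079 (adjusted p = 1.1e-09), for ID2 -0.84 ± 0.10 and for ID1 -0.74 ± 0.068. Of the ID and BMP target list 9 members were lower with Palmul-tang than with Samul-tang and none higher, with ID1, ID2 and ID3 among the 9. Over all genes 759 (4.38%) were lower and 788 (4.55%) higher. Of the sterol genes, INSIG1 was at 116, 119 and 119 CPM with Samul-tang (Palmul-tang minus Samul-tang -0.020, 95% interval -0.10 to 0.062), and of the 26 cholesterol genes 3 were higher and none lower with Palmul-tang than with Samul-tang. SCD was lowest with Samul-tang, at 195, 192 and 193 CPM, below Palmul-tang (0.23 ± 0.038, adjusted p = 5.27e-05). ANGPTL4, at 35.3, 34.4 and 32.7 CPM with Samul-tang, was higher with Palmul-tang than with both parents, whereas IGFBP1 was highest with Samul-tang (56.96, 57.6 and 55.2 CPM). GDF15 and HMOX1 were lower with Samul-tang than with Palmul-tang, at 8.40 ± 0.424 and 184 ± 11.9 CPM.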

How the data were processed

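RNA of SW1783 cells was sequenced with a directional library kit as paired 100 bp reads, per the labels' protocols. FastQC 0.11.9, Trim Galore 0.6.5, STAR 2.7.3a, RSEM 1.3.3 and the build hg38 (GRCh38) are named in the submitters' processing notes. The authors deposited expected counts per gene as RSEM gives them, which need not be whole. The annotation release and strand setting are not given in the sources used here, so reads of a gene and an overlapping antisense gene cannot be told apart. The labels give the vehicle as 0.1% DMSO and the series text as 2%.

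Of 279 columns 219 were not used. Expected counts were rounded to whole numbers, scaled by TMM, filtered with filterByExpr and tested with edgeR 4.0.16 (quasi-likelihood F test, R 4.3.3, Benjamini-Hochberg adjustment, two-sided) on 39 libraries in 13 groups, the vehicle and 4 formulas at 3 doses. Totals over the 39 were 19793387 to 37152410 expected counts. Single-herb libraries were left out of this fit and added in an alternative. They are not compared here, and an earlier analysis of these data found 2 of them far from all other libraries. The choice was thus made with earlier results known, and the counts of called genes depend on it. Alternatives were other library sets, filters and normalizations, length and GC trends, a replicate block, DESeq2 1.42.0, and each library left out in turn. On simulated counts of 17200 genes, the high dose test called 28, 35, 41 and 49 of 50 genes changed 1.25, 1.5, 2 and 4-fold, and 11 of 17005 unchanged ones. Symbols came from a list of gene names (56558 of 60675 genes) and, where it had none, from GENCODE release 29. Gene positions came from GENCODE release 29 (57055 of 60675 genes matched), promoters from RefSeq.

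Members, gene lists and the naming rule were chosen with earlier results of these data known. Named were the 12 largest rises and 12 largest falls among genes of at least 5 CPM called at the high dose and in the high minus low test, without overlap of the libraries, genes called at both high and low dose, ID1, ID2, ID3 and HMGCS1, up to 4 called members of each list with the smallest adjusted p, and a fixed set of markers. SMAD9, GREM1, BMPER, SREBF1 and SREBF2 were named after their values were seen. Some genes that the rule names are not reported here.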

Additional observations from a re-analysis of the deposited data

Results flagged for a closer look

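For 255 genes the change from the low to the high dose differed between Palmul-tang and Sagunja-tang, by edgeR's test of that difference itself (adjusted p below 0.05 over 17332 genes). The values below are the log2 difference between the formulas at the high dose less that at the low dose, for most of these genes that the text names. Among genes with a lower value with Palmul-tang, SAMD11 -1.71, ID3 -1.66, ID2 -1.56, ID4 -1.49, ATOH8 -1.29, SMAD6 -0.98, ID1 -0.89, RASL11A -0.86, RHOBTB3 -0.77 and DHRS3 -0.71 led in size. They were followed by DLX2 -0.68, KRT7 -0.62, KRT80 -0.57, KRT81 -0.54, SCD -0.51, INSIG1 -0.51, ANKRD1 -0.51, FADS2 -0.50, COL11A1 -0.38 and MSMO1 -0.37. Next came STRA6 -0.32, SREBF2 -0.31, FASN -0.29, SQLE -0.28, LTBP3 -0.27, CCNA2 -0.25, FADS1 -0.25, NPC1 -0.24, HMMR -0.23 and IGFBP3 -0.20. Among genes with a higher value with Palmul-tang, ANGPTL4 1.12, RRAD 0.75, LIF 0.71, IGFBP1 0.71, CXCL8 0.69, ADAMTS6 0.65, NDRG1 0.57, F3 0.55, HAS2 0.55, PTX3 0.53, DUSP5 0.48 and EGR1 0.46 led in size. They were followed by SERPINB2 0.45, CCN1 0.43, ABCA1 0.42, FBXO32 0.41, ADAMTS1 0.39, GDF6 0.38, CEMIP 0.37, PLIN2 0.37, PSD4 0.37, ENO2 0.32, PLAUR 0.29 and MMP14 0.29. Next came HAS3 0.28, SOD2 0.28, UGDH 0.26, RGMB 0.26, INHBA 0.25, STC2 0.25, THBS1 0.21 and SLC2A1 0.19. Without the library labelled Palmul-tang low dose replicate 2, PLAUR, PSD4, CXCL8 and RGMB were no longer called by this test, and SREBF1, CPT1A, KIF20A, DUSP4 and FTH1 were called. DNAJB9, not listed above, was at 0.29 without that library (adjusted p = 0.026 by the same test).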

How the results depend on the processing

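With the single-herb libraries in the fit the counts were 162 genes at the high dose, 0 at the medium, 0 at the low, 42 for high minus low, 831 for Samul-tang and 299 for Palmul-tang minus Samul-tang, and 0 for Sibjeondaebo-tang against Samul-tang at the low dose. At the medium dose the count was 18 with only the groups compared, 402 with no filter on low counts, 50 with length and GC trends removed and 174 by DESeq2. At the low dose it was 2 with the 18 libraries of the formulas, 3 with only the groups compared, 179 with no filter and 15 by DESeq2, and for Sibjeondaebo-tang against Samul-tang 19, 241 and 53 under the last 3 settings. Leaving out 1 library at a time gave 505 to 598 genes at the high dose, 11 to 77 at the medium, 0 to 3 at the low, 144 (without Palmul-tang low dose replicate 1) to 270 for high minus low, and 0 to 4 for Sibjeondaebo-tang against Samul-tang. The cause was not tested. With the replicate block the counts were 894 at the high dose, 158 at the medium, 1 at the low, 290 for high minus low and 15 for Sibjeondaebo-tang against Samul-tang. Replicates of the same number were not stated to be paired, and their deviations correlated at 0.033, 0.032 and -0.11 between the high dose groups. Over all groups the median correlation was 0.038 for the same number and -0.027 for other numbers. Of 39 libraries, 30 were closest on average to their own number. The main fit has no term for replicate number, and whether replicates were handled together was not tested.

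Of 113 genes called at the high dose that the naming rule gave or that were added after their values were seen, 113 had the same direction under the 16 alternatives, 60 were called under each, and 29 lost the call only with the single-herb libraries. CCN2, not called, changed sign to -0.029, -0.064, -0.0029 and -0.00427 without Palmul-tang replicate 2, Palmul-tang replicate 3, Sagunja-tang replicate 1 and Sagunja-tang replicate 2, and MT2A, not called, to -0.014 without Palmul-tang replicate 1. Their values without 1 library ran from -0.064 to 0.10 for CCN2 and from -0.014 to 0.099 for MT2A. Depth limits genes near 1 CPM, such as ID4.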

Other observations

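Over all genes that differed between the parent formulas, the mean level with Palmul-tang most often lay between them. Of 1507 genes lower with Samul-tang than with Sagunja-tang, the Palmul-tang mean lay between both in 1138 (75.5%), below Samul-tang in 129 and above Sagunja-tang in 240. Of 1474 genes higher with Samul-tang, it lay between in 1228 (83.3%), above Samul-tang in 83 and below Sagunja-tang in 163. The ID genes, SAMD11, ATOH8 and SMAD6 were among those below Samul-tang. These counts describe means of 3 libraries and share the libraries compared, so no test was made of them.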
